A study of Mus musculus with 39 samples.

Results

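The sites described here are places on the mouse genome where the estrogen receptor (ER) was called in 7438 Afos cells after estradiol (E2) and where no receptor was called in 7438 cells under any treatment. They were chosen from the ER E2 list of replicate 1: a site had to share at least 1 bp with a site of the replicate 2 list and with no site of the 8 lists of 7438. Of the 6046 sites in the replicate 1 list, 4275 recurred in replicate 2 and are called reproducible, and 554 of these (13.0%) were in no list of 7438. The remaining 3721 reproducible sites, called the shared sites below, are the comparison throughout.

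Both cell lines are mouse mammary cells with tetracycline-regulated genes for the glucocorticoid receptor (GR) fused to GFP and for ER fused to Cherry; 7438 Afos cells carry Afos under such a promoter as well. Tetracycline was withdrawn before hormone treatment, which induces the fusion proteins in all groups. In each line ER or GR was mapped by ChIP-seq in untreated cells and after 30 min with 100 nM dexamethasone (Dex, a ligand of GR), with 100 nM E2 (the ligand of ER) or with both hormones (Dex+E2). Each receptor and treatment had 2 replicate lists in 7438 Afos and 1 list in 7438, giving 24 lists of 35 to 14160 called sites. Whether replicates came from separate cultures is not stated, and read depth is unknown because the lists hold only called sites.

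ER and GR are ligand-activated transcription factors of the nuclear receptor family, and E2 drives ER onto estrogen response elements and onto DNA where other factors hold chromatin open. The name Afos is not explained in the labels; a protein called A-Fos acts as a dominant negative against AP-1, the complex of Fos and Jun proteins, by pairing with Jun and keeping it off DNA. AP-1 is one of the factors known to open chromatin for both receptors.

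The 554 sites were mostly weak members of their own lists. These values come from the lists that chose the sites and are a description without a test. The highest tag density, a coverage value of the authors, ranged from 4.37 to 47.0 in replicate 1 with a median of 13.2, against 22.9 at the shared sites. In replicate 2 the medians were 10.6 and 17.2. As percentile ranks within the list, the 554 sites had a median of 34.4 in replicate 1 and 22.4 in replicate 2, where the shared sites stood at 68.2 and 59.4. The highest rank of any of the 554 in replicate 1 was 89.8. Ranked below the median of both lists were 394 of the 554 sites (71.1%), and 58 ranked at or above it in both. The median width was 543 bp against 631 bp at the shared sites. Among sites of like rank the widths were closer. In the weakest of 5 equal classes of mean rank they were 497 and 506 bp, and in the middle class 605 and 607 bp. In the fourth class they were 641.5 and 671 bp. Between replicates the ranks of the 554 sites were related, with a Pearson correlation of 0.65 and a Spearman correlation of 0.62 across sites. At the shared sites these were higher, at 0.82 and 0.86. Sites share the same 2 libraries and are not independent replicates.

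**Figure D1:**
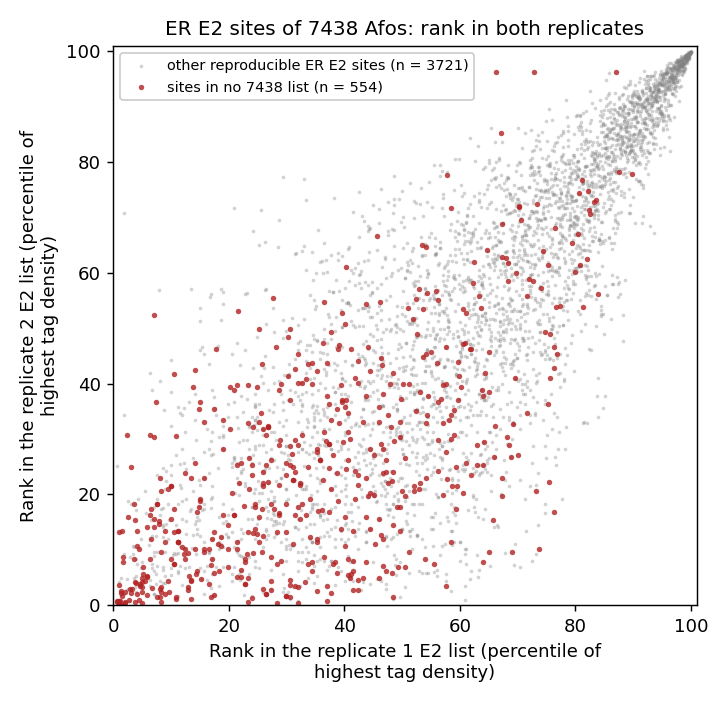
Each point is a reproducible ER E2 site of 7438 Afos, placed by its percentile rank of highest tag density in the replicate 1 list (x axis) and in the replicate 2 list (y axis). The 554 sites in no 7438 list (red) fill the lower left, with medians of 34.4 and 22.4, while the 3721 shared sites (grey) reach the upper right corner, with medians of 68.2 and 59.4.

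The lists of the 2 lines had different lower limits. Every site of the 7438 lists was 150 bp wide. Each had a highest density of 10 or more and a z-score (the authors' enrichment score) of 15 or more. The 7438 Afos lists went lower on both values. Both of these limits were met in both E2 lists by 192 of the 554 sites (34.7%, exact binomial 95% interval 30.7 to 38.8%) and by 2813 of the 3721 shared sites (75.6%). Whether density and z-score share a scale in the 2 lines is not stated. Recurrence also differed: 554 of the 1359 replicate 1 sites in no 7438 list were found in replicate 2 (40.8%), against 3721 of the 4687 that overlapped a 7438 list (79.4%). The ER lists of 7438 set the class nearly alone, because only 5 reproducible sites overlapped a GR list of 7438 and no ER list.

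At the border of the class the sites were as follows. The shortest overlaps between replicates among the 554 were 162 bp (chromosome 14, mm9, 17161069 to 17161333) and 231 bp (chromosome 14, 55500624 to 55500882), both far above the 1 bp required. The smallest gaps to an ER site of 7438 were 19 bp at chromosome 2 (9696906 to 9697430) and 36 bp at chromosome 10 (17766814 to 17767243). Just outside the class, a site on chromosome 17 (84382394 to 84382647) shared 8 bp with a GR site of 7438, and a site on chromosome 8 (86672079 to 86672528) shared 23 bp with an ER site.

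Of the 8 strongest sites by mean rank, 3 lay side by side on chromosome 17 and were also called without E2. They are neighbouring replicate 1 sites (39979898 to 39984064, 39984935 to 39985422, and 39985525 to 39985841) that fall on 1 wide replicate 2 site. Their densities in replicate 1 were 40.9, 25.4 and 22.0, and the shared replicate 2 site reached 59.5. The first, at 4166 bp the widest of the 554, was also called in untreated cells by the GR antibody (45.6 and 8.30) and, in 1 of 2 lists, by the ER antibody (51.6). It was in 10 of the 14 other Afos lists. With Dex alone its ER densities were 48.1 and 45.0. In replicate 1 only, GR was called at 25.5 with Dex and 28.9 with E2. With both hormones its ER densities were 45.6 and 33.5. In replicate 2 this value was below the untreated one, while in replicate 1 no untreated ER call was made. How density scales between lists is not stated, so no change with hormone can be read from it.

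The other 5 of the 8 had a different pattern, with no call in any Afos list made without E2. A site on chromosome 14 (19103466 to 19104228) had the highest replicate 1 density of all 554, 47.0, with 24.9 in replicate 2. It was called for ER with Dex+E2 in replicate 1 only, at 10.6, and for GR with E2 in replicate 1 at 7.94. The site on chromosome 16 (30066764 to 30067479) reached 41.8 and 25.2 with E2, and no other Afos list held it. A site on chromosome 10 (80398954 to 80399628) had 33.9 and 22.9 with E2, and with Dex+E2 an ER density of 19.4 and a GR density of 12.8, both in replicate 1 only. The site on chromosome 17 at 45775555 to 45776208 (32.4 and 24.3 with E2) was in no other Afos list. The same held for 37624968 to 37625657 on chromosome 19, with 35.7 and 22.1.

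With both hormones ER was called at few of these sites. In the ER Dex+E2 lists, which the choice of sites did not use, 159 of the 554 (28.7%, interval 24.97 to 32.7%) were present in replicate 1 and 37 (6.68%, 4.75 to 9.09%) in replicate 2. Over all 4275 reproducible sites the shares were 68.4% and 39.6%. The shared sites had 74.3% (72.8 to 75.7%) and 44.5% (42.9 to 46.1%), so in each list the 2 intervals lay apart. The mean share was 17.7 ± 15.6% (SD, n = 2 lists) for the 554 sites and 59.4 ± 21.0% for the shared sites, a difference of -41.7 ± 5.45 percentage points with the same sign in 2 of 2 lists. With 2 lists a group the two-sided exact permutation test cannot go below p = 0.333, which was its value here. Both groups were measured in the same 2 lists. The test ignores this pairing, so its p-value also reflects the spread between lists. Intervals cover counting error only, and sites of 1 list are not replicates. The choice of sites did require absence from the ER lists of 7438, which include both hormones. The ER list labelled Dex+E2 overlapped 0.865% of all reproducible sites and the one labelled untreated 83.4%, and these names contradict the labels. How far this requirement sets the difference was not tested.

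Across both replicates 34 of the 554 sites (6.14%) were in both ER Dex+E2 lists, against 39.0% of all reproducible sites. In replicate 1 only were 125 (22.6%), in replicate 2 only 3 (0.542%) and in neither 392 (70.8%). Of the shared sites, 30.4% were in replicate 1 only, 0.672% in replicate 2 only and 25.1% in neither. Where an ER Dex+E2 call was made at the 554 sites, it was again a weak one. Its median rank was 17.5 in replicate 1 and 18.4 in replicate 2, against 67.2 and 59.6 at the shared sites that were called. The sites kept in both lists had been somewhat stronger with E2, with a median mean rank of 37.8, than those in neither list, with 28.1.

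**Figure D2:**
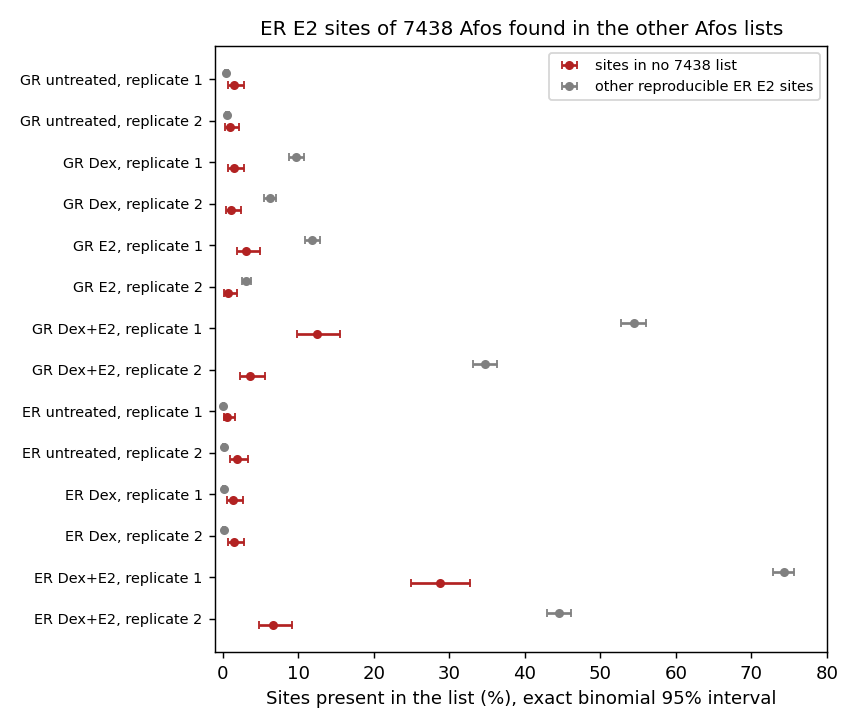
Each row is 1 of the 14 lists of 7438 Afos that did not enter the choice of sites; points give the percentage of the 554 sites in no 7438 list (red) and of the 3721 shared sites (grey) found in it, with exact binomial 95% intervals. The widest gaps are in the ER and GR Dex+E2 lists, for example 28.7% against 74.3% for ER in replicate 1, while in the untreated and Dex lists of ER the red points lie slightly to the right of the grey ones.

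The same shares were compared among sites of like strength. The 4275 sites were divided into 5 classes of equal size by mean rank with E2; the weakest class held 312 of the 554 sites and the strongest held 3. In the weakest class ER was called with Dex+E2 at 26.6% of the 554-site group and 49.2% of the shared sites in replicate 1, and at 4.17% and 20.4% in replicate 2. In the fourth class the values were 38.5% and 86.1%, then 11.5% and 51.6%. The share was lower at sites in no 7438 list in 9 of 10 comparisons of class and list, and the intervals lay apart in 8. The exception was the strongest class in replicate 1, where all 3 sites were called; 2 of them are chromosome 17 neighbours described above. With the classes weighted equally the mean difference was -24.4 percentage points (exact permutation p = 0.667). It was -22.2 percentage points with classes weighted by how many of the 554 they hold, a setting chosen after seeing the data (exact permutation p = 0.667), and -41.7 without classes. As above, the test ignores that both groups were measured in the same 2 lists.

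**Figure D3:**
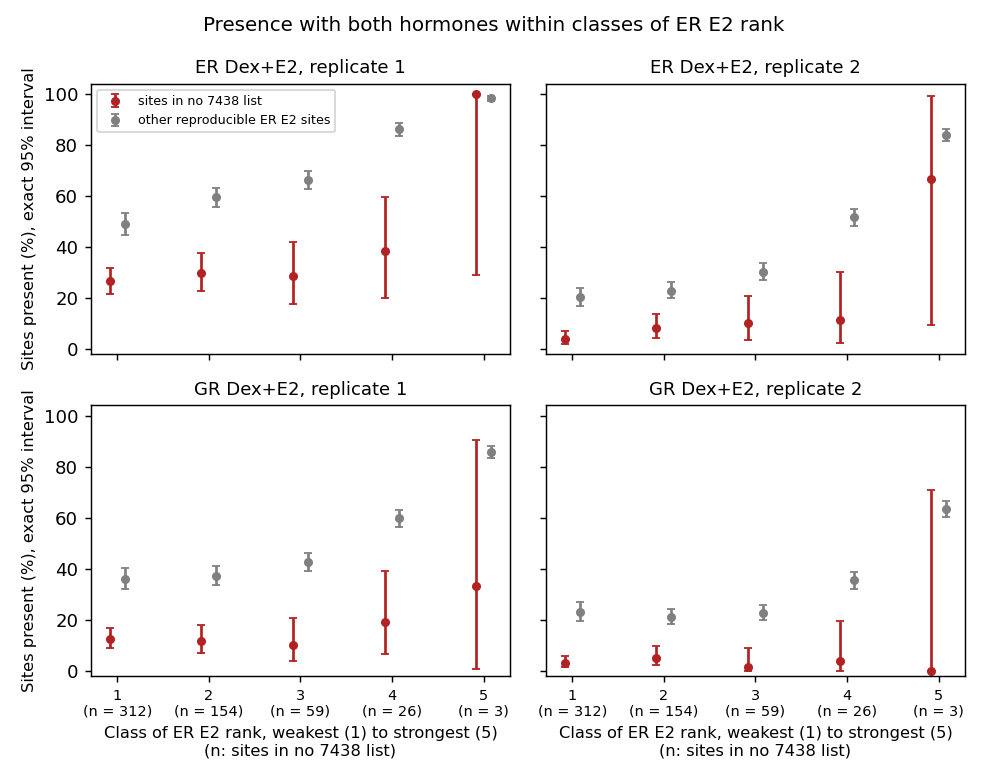
The 4 panels show, for each Dex+E2 list, the percentage of sites present (y axis, exact binomial 95% intervals) in 5 classes of ER rank with E2 from weakest to strongest (x axis, with the number of sites in no 7438 list). The shared sites (grey) climb from 49.2% to 98.2% in ER replicate 1, and the sites in no 7438 list (red) lie below them in all panels and classes except the strongest class of that panel, where 3 of 3 were present.

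The 4 highest-ranking sites found in both ER Dex+E2 lists were the 3 chromosome 17 neighbours and a second region of that chromosome (10342970 to 10343669). The latter had ER densities of 32.0 and 22.7 with E2 and of 23.5 and 5.89 with Dex+E2, a GR density of 14.7 in the replicate 1 Dex+E2 list, and no call without E2. Chromosome 17 held 10 of the 34 sites found in both lists, out of its 28, against 24 of the 526 on the other chromosomes. Over all reproducible sites 39.0% were in both lists, and this share was not counted for chromosome 17 alone. The 10 include the 3 neighbours that share 1 replicate 2 site and a site at 36368153 to 36368602, all also called in untreated cells. Among sites in neither list the strongest were those on chromosomes 16, 17 and 19 named above and a site on chromosome 15 (101090643 to 101091297; 35.3 and 21.9 with E2).

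GR was called at few of these sites. With both hormones it was found at 69 of the 554 (12.5%, 9.82 to 15.5%) in replicate 1 and at 20 (3.61%, 2.22 to 5.52%) in replicate 2, where the shares over all reproducible sites were 49.0% and 30.7%. The shared sites had 54.4% and 34.7%. The mean difference was -36.5 ± 7.68 percentage points (SD, n = 2 lists; exact permutation p = 0.333, the smallest possible), and it was negative in 2 of 2 lists. In the 5 strength classes it was negative in 10 of 10 comparisons, with intervals apart in 8, and its mean was -32.7 percentage points with classes weighted equally. With classes weighted by the 554 sites, a setting chosen after seeing the data, it was -22.9. The choice of sites required absence from the GR lists of 7438, and with only the ER lists required the difference was -35.8.

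GR with Dex alone was nearly missing from the class. It was present at 8 sites (1.44%) in replicate 1 and 6 (1.08%) in replicate 2, where all reproducible sites had 8.65% and 5.57%. Of the 9 sites in at least 1 of these lists (background 8.68%), 5 were also called in untreated cells. GR with E2 alone was present at 17 sites (3.07%) and 4 sites (0.722%), against 10.7% and 2.78% of all reproducible sites. Of the 554 sites, 70 held GR in at least 1 Dex+E2 list (background 49.5%), and 61 of these 70 had no GR call with Dex. The counts were 1748 of 2118 over all reproducible sites and 1687 of 2048 at the shared sites, shares near that of the 70. Taken out of whole groups, such sites were 61 of the 554, against 40.9% of all 4275 reproducible sites.

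The share of sites with a GR call was higher where ER was called as well, though in replicate 2 more GR calls lay at sites without an ER call. In replicate 1, GR was present at 56 of the 159 sites with an ER Dex+E2 call (35.2%, 27.8 to 43.2%) and at 13 of the 395 without (3.29%). In replicate 2 the counts were 9 of 37 (24.3%) and 11 of 517 (2.13%). Where ER was called, GR was less frequent than at the shared sites with an ER call, which had 70.6% and 64.8%. The intervals lay apart in both replicates. These shares were not matched on strength, and its part in them was not tested. At all shared sites the replicate 1 GR share was 36.1% in the weakest strength class and 85.9% in the strongest. The ER Dex+E2 calls had median ranks of 17.5 and 18.4 at the sites described here, against 67.2 and 59.6 at the shared sites. The GR calls were weak, with a median rank of 14.3 and 9.79 in the GR Dex+E2 lists against 60.5 and 56.1 at the shared sites. The length and the lowest density of the lists differ between replicates, and their part in these shares was not tested.

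Among the 19 sites with GR in both Dex+E2 lists (3.43%, background 30.1%), the highest by ER rank lay on chromosome 16 (30187803 to 30188476). Its ER densities were 25.7 and 21.8 with E2, its GR densities 31.0 and 14.8 with Dex+E2, and GR was called with Dex alone in replicate 1 at 10.3. A site on chromosome 9 (15593690 to 15594717) followed, with ER at 28.5 and 16.0 with E2 and at 24.6 and 10.4 with Dex+E2, and GR at 16.3 and 6.50 with Dex+E2 only. At 67139666 to 67140491 on chromosome 14 GR was lower, at 5.43 and 4.89, and at 40692099 to 40692816 on chromosome 13 it was 7.34 and 4.09. In contrast, at both sites nearest to an ER site of 7438 the deposited GR density was higher than that of ER with E2. Whether the 2 share a scale is not stated. At chromosome 2 (9696906 to 9697430) GR reached 13.8 and 6.32 with Dex and 31.6 and 18.1 with Dex+E2, while ER with E2 was 4.37 and 4.25. At chromosome 10 (17766814 to 17767243) GR reached 26.7 and 13.3 with Dex and 23.0 and 20.9 with Dex+E2, while ER with E2 was 8.42 and 9.33.

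A small group of the 554 sites was called without E2. In untreated cells the ER lists held 3 of them (0.542%) in replicate 1 and 10 (1.81%) in replicate 2, against 0.0936% and 0.327% of all reproducible sites. The ER Dex lists held 7 (1.26%) and 8 (1.44%), against 0.257% and 0.281%, and each of these was also in an untreated list. The GR untreated lists held 8 (1.44%) and 5 (0.903%), against 0.515% and 0.608%. Of the 14 reproducible ER E2 sites that the second untreated ER list held, 10 were thus in no 7438 list. These rest on lists of 35 to 315 sites, and the differences between the 554 and the shared sites had an exact permutation p of 0.333 in each case.

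The 10 sites called in untreated cells (background 0.865%) lay in few places: 4 on chromosome 17, 2 on chromosome X and 1 each on chromosomes 1, 3, 8 and 16. Sites on chromosome X (123302480 to 123303626) and chromosome 3 (95848507 to 95848975) were in all 14 of the other lists. On the chromosome X site ER density was 7.71 and 6.87 with E2, 8.30 and 9.66 in untreated cells, and 8.08 and 14.9 with Dex+E2. The chromosome 3 site had 7.71 and 6.79 with E2 and 6.94 and 7.53 in untreated cells. The deposited density with E2 was thus below that of untreated cells in both replicates at the first site, and in replicate 2 only at the second. Its scaling between lists is not stated, so no change with hormone can be read from these values. By contrast 376 of the 554 (67.9%) were in none of the other lists, against 848 of the shared sites (22.8%) and 28.6% of all reproducible sites. In 1 other list were 101 of the 554, a share near the 18.2% found for all reproducible sites. In 4 or more were 18 of the 554, where 29.0% of all reproducible sites were in 4 or more. Of the 101, 89 were in the replicate 1 ER Dex+E2 list. Without the sites in untreated lists 544 remained in the class, and the differences were -42.7 percentage points for ER and -37.1 for GR.

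Few of the sites lay beside an ER site of 7438. The distance to the nearest of the 4 ER lists of 7438 had a median of 24908 bp, with the middle part of the distribution (lower to upper quartile) from 7332 to 64270 bp. Within 500 bp were 9 sites (1.62%), within 1000 bp 22 (3.97%), within 10000 bp 178 (32.1%) and within 100000 bp 458 (82.7%). For the shared sites the distance to the nearest ER site they did not overlap had a median of 8269 bp, and 54.4% had one within 10000 bp. A distance above 0 is fixed by the choice of sites, so no test was made.

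The distance depended on which list of 7438 was used. The nearest site was in the list labelled untreated for 225 of the 554, in the Dex list for 206, in the E2 list for 119 and in the list labelled Dex+E2 for 4. The Dex list held 10149 sites and overlapped 1.57% of all reproducible sites, against 78.7% for the E2 list. Without the Dex list, a setting chosen after seeing the data, the median distance was 45832 bp, and to the E2 list alone it was 77970 bp. The nearest GR site of 7438 lay at a median of 56597 bp, against 8267 bp for the shared sites, which unlike the 554 may overlap one. Another reproducible ER E2 site of 7438 Afos lay at a median of 93318 bp, against 44900 bp for the shared sites. Within 10000 bp, 91 of the 554 (16.4%) had such a site, against 25.8% of the shared sites. For 17 of the 554, another of the 554 lay within that distance.

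After the 2 sites given above, the nearest to an ER site of 7438 was 29945760 to 29946336 on chromosome 16, at 69 bp. The next was 148569537 to 148570045 on chromosome 2, at 123 bp. Neither was called for GR or for ER with Dex+E2, and with E2 their densities were 18.2 and 12.7, then 14.02 and 14.3. The 4 farthest were all on chromosome X. They lay at 67624205 to 67624627, 123302480 to 123303626, 123304191 to 123305073 and 17346589 to 17347017, with gaps of 1603218, 1598318, 1596871 and 1465976 bp. All 4 ranked low with E2, at mean percentiles of 12.0, 4.23, 2.13 and 4.94.

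**Figure D4:**
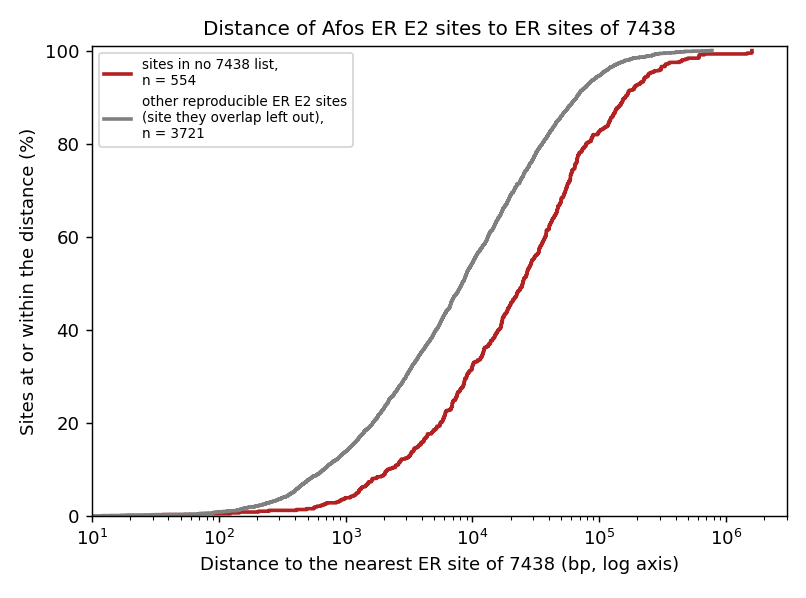
Curves give the percentage of sites (y axis) whose nearest ER site of 7438 lies at or within the distance on the x axis (bp, log axis), for the 554 sites in no 7438 list (red) and for the 3721 shared sites with the site they overlap left out (grey). The red curve lies to the right of the grey one, with medians of 24908 and 8269 bp.

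The sites were found on every autosome and on X, with the highest share on X. The class took 18 of the 46 reproducible ER E2 sites of chromosome X (39.1%, exact binomial interval 25.1 to 54.6%) and 536 of the 4229 on the autosomes (12.7%, 11.7 to 13.7%). Autosomes ranged from 7.96% on chromosome 12 (16 of 201) to 21.1% on chromosome 14 (27 of 128). Sites on X were weak in general: 30 of the 46 belonged to the weakest of the 5 strength classes, where 16 of them were in no 7438 list against 36.5% over all chromosomes. The 4 ER lists of 7438 held 224 sites on X in all, fewer than on any autosome. Chromosomes are not replicates and no test was made.

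**Figure D5:**
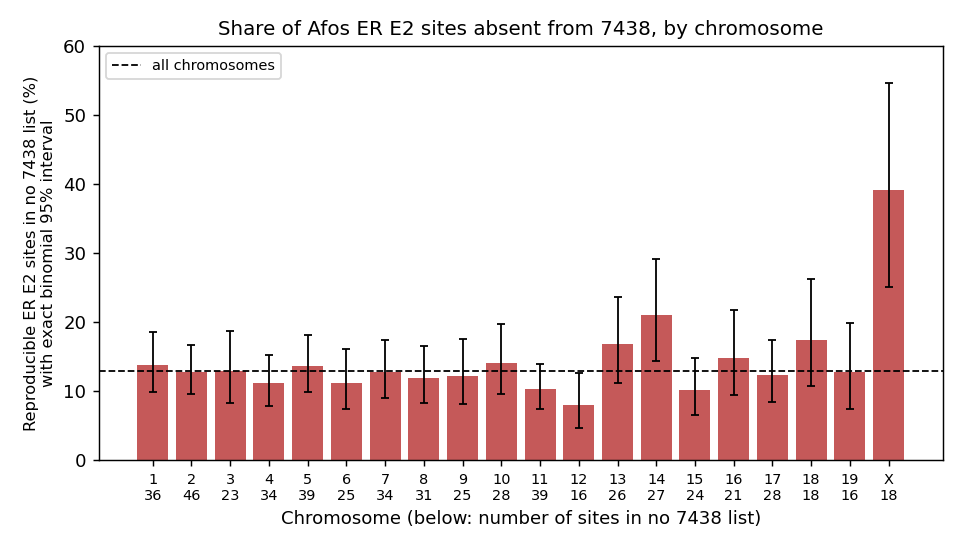
Bars give, for each chromosome, the percentage of reproducible ER E2 sites of 7438 Afos that were in no 7438 list, with exact binomial 95% intervals and the number of such sites below the axis. The dashed line marks 13.0% for all chromosomes; X stands at 39.1%, and the autosomes lie between 7.96% and 21.1%.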

How the data were processed

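Called sites were taken from 24 of the 39 samples; the other 15 samples, among them second replicates of 7438, were not analysed here. The authors deposited 1 list a sample with, per the file headers, a highest and an average tag density (a signal value whose scaling is not stated), a z-score (the score of the authors) and, in 7438 Afos, a p-value that the authors deposited and that was not used. The submitters' processing notes name build mm9 and CASAVA 1.8; the aligner, caller and thresholds were not given in the sources used here. In 7438 the names of the untreated and Dex+E2 lists contradict the labels; the class uses all 8 lists together, so it is the same in either reading.

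Overlap meant at least 1 bp. Density was ranked within each list as a percentile, and a site overlapping several sites took the highest. Shares carry Clopper-Pearson 95% intervals. With 2 lists a group, shares were compared by a two-sided exact permutation test. Both groups were measured in the same 2 lists, and the test ignores this pairing except in the replicate block. Named sites are the 8 highest by mean rank, the 4 highest in both ER Dex+E2 lists, in neither, and with GR in both GR Dex+E2 lists, the 4 nearest and 4 farthest, and 2 on either side of the border; those called in untreated cells were named after their values were seen. The class, rules and settings were chosen with earlier results of these data known. Overlap and distance code was tested on simulated lists. Genes and motifs were not assigned, because no mm9 genome was used here. Python 3.11.15, NumPy 2.4.6, pandas 2.3.3, SciPy 1.17.1 and matplotlib 3.10.9 were used.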

Additional observations from a re-analysis of the deposited data

How the results depend on the processing

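The number of sites in the class was 554. It was 192 with the lower limits of the 7438 lists and 58 with sites at or above the median density in both lists. Leaving out an ER E2 replicate gave 721 to 1359 sites. The median distance was 24470 bp with sites taken from replicate 2, 25450 bp with 7438 sites widened by 500 bp, 17533 bp with the lower limits and, in settings chosen after seeing the data, 23062 bp without chromosome X and 45832 bp without the ER Dex list of 7438. Leaving out an ER E2 replicate gave 24909 to 27034 bp. The differences in presence stayed negative in all 16 settings run for each receptor, from -46.7 to -22.2 percentage points for ER and from -46.4 to -22.9 for GR; no setting could pass the 0.05 threshold. Leaving out a Dex+E2 replicate gave -45.6 to -37.9 for ER and -41.9 to -31.1 for GR. With same-numbered lists as pairs (replicate block) the differences were -41.8 for ER and -36.5 for GR (exact permutation p = 0.5, the smallest possible). The labels do not say that replicate numbers mark a shared culture or day. Across sites in all 4 lists the rank differences between replicates correlated at 0.24 (ER) and 0.27 (GR). Unknown depth and single lists in 7438 limit what absence from a list can show.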

Other observations

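The ER Dex+E2 sites of 7438 Afos were found in 7438 more completely than the E2 sites. Of the 2385 replicate 1 sites that recurred in replicate 2 with both hormones, 85 (3.56%, exact binomial 95% interval 2.86 to 4.39%) were in no list of 7438, against 13.0% with E2. Of these 85 sites, 34 overlapped one of the 554 E2 sites, and 41 overlapped an ER E2 site of either replicate. For GR with both hormones, 1331 of 9105 reproducible sites (14.6%, 13.9 to 15.4%) were in no list of 7438, and 18 of them overlapped one of the 554 sites. Such overlaps were not counted over all 2385 or all 9105 sites, so these overlap counts have no background. The second ER Dex+E2 list had 2564 sites and the first 5905, and the part of list length in the ER value was not tested.

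Chromosome X took a larger share of the lists in 7438 Afos than in 7438 for ER with E2 and GR with Dex. ER E2 sites on X made up 1.27% and 1.30% of the 2 Afos lists and 0.504% of the 7438 list. For GR with Dex the shares were 2.28% and 2.12%, against 1.34%. The lists of the 2 lines were made with different widths and limits, and 7438 has 1 list for each, so no test was made.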
